A study of Mus musculus with 12 samples.

Results

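The lineage gap, meaning the log2 difference in expression between helper-lineage and cytotoxic-lineage LN T cells, was compared between B6 and CD8Dual mice. For every gene the gap of CD8.1 minus CD8.2 T cells was set against the gap of B6 CD4+ minus B6 CD8+ T cells, and the difference of these gaps, an interaction, was tested over all 12 of the 12 samples of the series. A positive difference means that CD8.1 T cells stood higher against CD8.2 T cells than B6 CD4+ T cells stood against B6 CD8+ T cells. Gaps, strain differences and interactions are given on the log2 scale. There were 4 groups of 3 samples: C57BL/6 (B6) mice gave CD4+ and CD8+ T cells, and CD8Dual mice gave the CD8.1+ and the CD8.2+ subset (sample titles call this strain 8in4). CD8Dual mice are homozygous, as the study describes them. They have normal Cd8 genes, while each Cd4 allele carries CD8α.1 and CD8β sequence and yields no CD4 protein. T cells that keep the altered Cd4 locus active thus carry CD8.1 co-receptors, T cells that keep the Cd8 locus active carry CD8.2 co-receptors, and neither carries CD4 protein. All 4 groups shared the sort from LNs for CD62L and TCRβ (antibody H57), male sex and an age of 6 to 10 weeks in the labels, and RNA from pooled sorted cells. The study's methods add a CD44-negative gate, which the labels do not name. The labels do not say whether replicates were separate animals, so p-values measure only the spread between these samples, which may be technical.

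Mature T cells settle into a helper or a cytotoxic fate in the thymus. Helper cells normally carry CD4 and read peptide on MHC class II, and cytotoxic cells carry CD8 and read peptide on MHC class I. ThPOK, encoded by Zbtb7b, holds the helper programme, and RUNX3 holds the cytotoxic one. In CD8Dual mice both lineages use CD8 co-receptors, so the comparison asks which genes keep the gap that separates the lineages of B6 mice when the co-receptor proteins are matched.

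The libraries held 18667474 to 37110502 counts each. T cell genes such as Cd3e were high in every group, at 269 to 358 CPM (counts scaled to a common library size by TMM), and of 10 T cell markers 0 had a lineage gap called as different by edgeR (3 at an unadjusted p under 0.05, and 1 by DESeq2). B cell transcripts were present at low levels, with Cd79a at 35.8 to 55.5 CPM in CD8.1 T cells against 21.7 to 27.8, 11.2 to 14.1 and 13.3 to 31.6 CPM in B6 CD4+, B6 CD8+ and CD8.2 T cells. The summed level of 10 B cell markers was 547 to 587 CPM in B6 CD4+, 641 to 667 in B6 CD8+, 667 to 811 in CD8.1 and 599.7 to 699 in CD8.2 T cells, and the part of B cells in the results was not tested. The first CD8.1 library stood apart from the others. Its voom sample weight was 0.207 against 0.516 to 2.47 in the other libraries, and the SD of its log2 deviations from the group mean was 0.319 against 0.205 to 0.270. All 12 libraries were kept, and counts of called list members are also given without that library. For the 10 T cell markers these were 3 positive and 1 negative, in a fit that called 10.5% of all tested genes. With voom sample weights 5 of the 10 were called, against 1605 of all 13118 tested genes. Over all tested genes with all libraries, 1741 had an unadjusted p under 0.05 and DESeq2 called 410.

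Of 13118 genes tested, 245 (1.87%) had a lineage gap that differed between the strains at an adjusted p under 0.05 by the quasi-likelihood test of edgeR with Benjamini-Hochberg adjustment, which is what "called" means here. For 207 genes (1.58%) the difference was positive and for 38 (0.29%) it was negative, whereas the median over all tested genes was -0.0039. In B6 mice 169 of the 245 genes were higher in CD8+ than in CD4+ T cells. Without the first CD8.1 library 1378 genes (10.5%) were called, 779 positive and 599 negative. These included all 245, each with the same sign. The other 1133 had a median absolute difference of 0.531 on the log2 scale against 1.58 for the 245. The plot of the CD8Dual gap against the B6 gap shows the 245 genes by class.

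**Figure D1:**
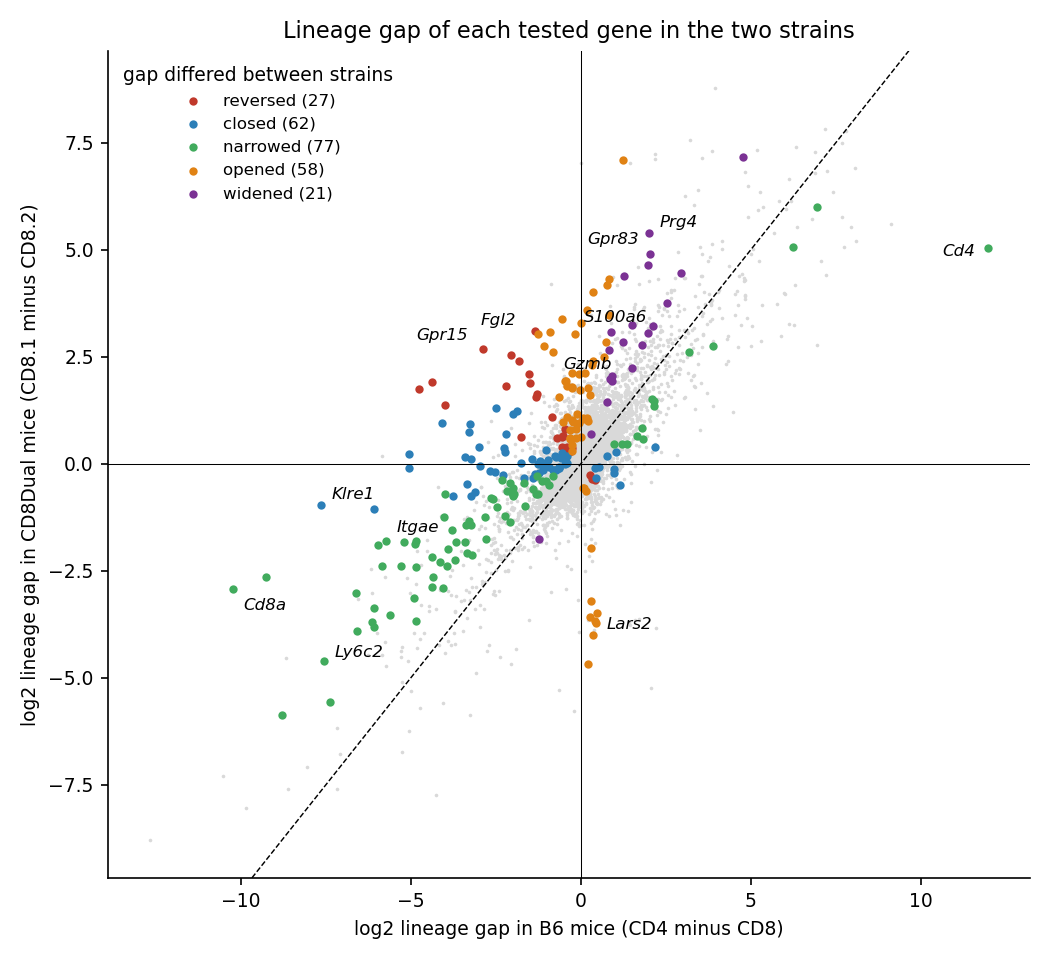
Lineage gap in CD8Dual mice (CD8.1 minus CD8.2 T cells, log2, vertical axis) against the lineage gap in B6 mice (CD4+ minus CD8+ T cells, log2, horizontal axis). Grey points are all 13118 tested genes, coloured points are the 245 genes whose gap differed, and the diagonal marks equal gaps. Most coloured points, 207 of 245, lie above the diagonal. In the upper left quadrant the estimated gap was negative in B6 and positive in CD8Dual mice. It holds 24 of the 27 reversed genes, along with genes for which 1 or both gaps were not called.

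The 245 genes fell into 5 classes by whether each strain's own gap was called. For reference, a gap was called in 3030 of 13118 genes (23.1%) in B6 and in 3771 genes (28.7%) in CD8Dual mice. The gap reversed its sign in 27 genes, with both gaps called, and 24 of these went from high in B6 CD8+ to high in CD8.1 T cells. In 62 genes the B6 gap was called and the CD8Dual gap was not (closed), which does not show that the CD8Dual gap was absent. Another 77 genes had the same sign in both strains with a smaller gap in CD8Dual mice (narrowed). In 58 genes only the CD8Dual gap was called (opened), and in 21 genes both had the same sign with a larger gap in CD8Dual mice (widened), 20 of them higher in the helper lineage. Without the first CD8.1 library 24, 55, 74, 52 and 21 of the reversed, closed, narrowed, opened and widened genes kept their class. When replicate number was blocked inside each strain, the fit called 330 genes, of which 89 were opened and 32 widened.

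A difference between gaps can come from the helper lineage (CD8.1 minus B6 CD4+), from the cytotoxic lineage (CD8.2 minus B6 CD8+) or from both. Over all tested genes the helper-lineage strain difference was called in 1674 (12.8%) and the cytotoxic-lineage one in 1042 (7.94%). Among the 245 genes, 118 were called in the helper lineage alone, 66 in the cytotoxic lineage alone, 58 in both and 3 in neither. For 54 of the 58, levels were up in CD8.1 relative to B6 CD4+ cells and down in CD8.2 relative to B6 CD8+ cells. The helper-lineage difference was the larger in 154 genes and the cytotoxic-lineage one in 91, with median absolute values of 0.960 and 0.588 on the log2 scale. With the replicate block within each strain the helper-lineage calls over all genes fell to 896, and 25 genes were called on both sides. Without the first CD8.1 library, 794 genes were called in the helper lineage alone, 313 in the cytotoxic lineage alone and 170 in both.

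**Figure D2:**
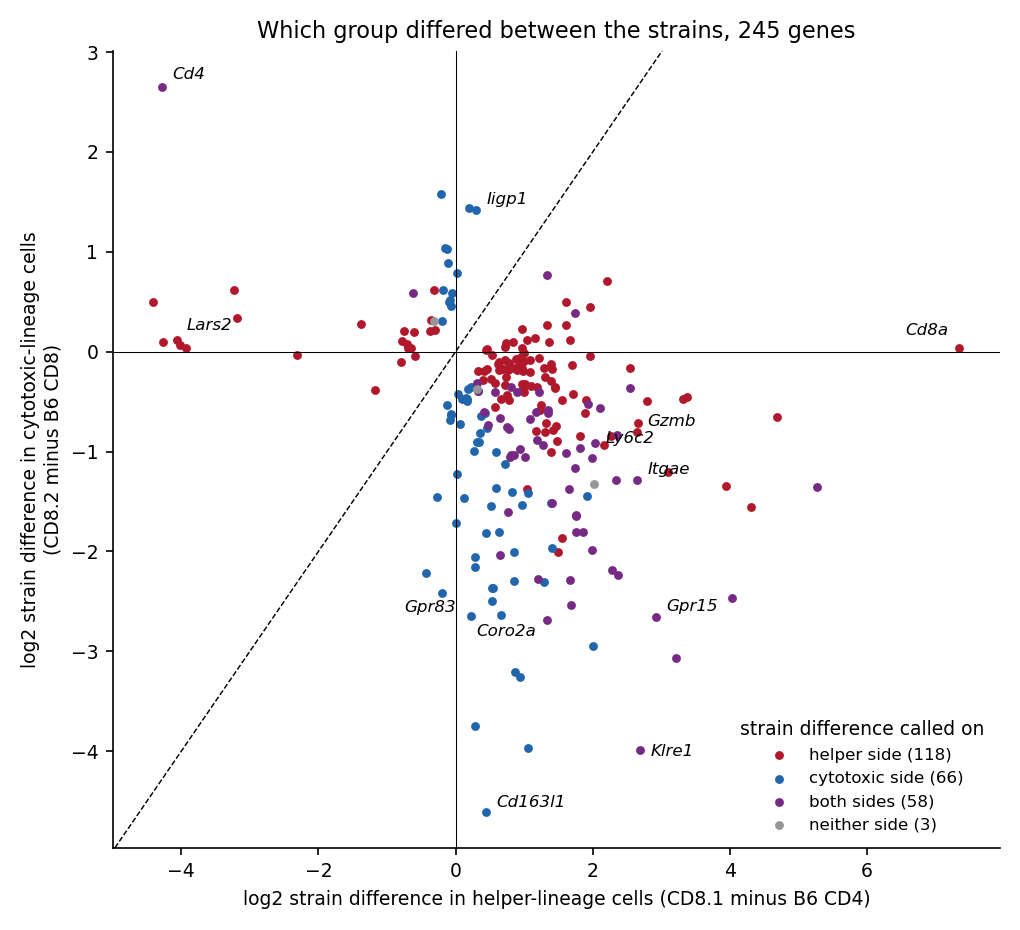
Strain difference in the helper lineage (CD8.1 minus B6 CD4+ T cells, log2, horizontal axis) and in the cytotoxic lineage (CD8.2 minus B6 CD8+ T cells, log2, vertical axis) for the 245 genes whose lineage gap differed. Colours mark the side on which the strain difference was called. The lower right quadrant, higher in CD8.1 and lower in CD8.2 T cells than in their B6 counterparts, holds 181 of the 245 genes.

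The co-receptor genes came first as a check of the labels, since the sort and the altered locus fix their levels. Cd4 was at 1004, 995 and 908 CPM in B6 CD4+ T cells, 0.287, 0.109 and 0.337 in B6 CD8+ T cells, 51.5, 50.6 and 47.2 in CD8.1 T cells and 1.79, 1.11 and 1.52 in CD8.2 T cells. Cd8a was at 0.682, 1.34 and 1.49 CPM in B6 CD4+ T cells, 1389.9, 1479 and 1400.1 in B6 CD8+ T cells, 179, 196 and 201 in CD8.1 T cells and 1432, 1492 and 1455 in CD8.2 T cells. Each library matched its label, and the Cd8a reads of CD8.1 T cells include transcripts of the altered Cd4 locus, which counts per gene cannot tell from those of the Cd8 locus. The B6 gap of -10.23 in Cd8a was -2.92 in CD8Dual mice, and that of Cd8b1 went from -6.07 to -3.37. The gap of Cd4 went from 11.98 to 5.05, so all 3 genes narrowed.

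Gpr15, Itgae, Gzmb and Ly6c2 showed different kinds of change. Gpr15 (ENSMUSG00000047293.6, GRCm38 chr16:58717433-58719070) encodes a receptor that guides T cells to the colon. It was at 0.819, 0.517 and 0.766 CPM in B6 CD4+ T cells, 5.04, 6.00 and 4.52 in B6 CD8+ T cells, 6.35, 3.80 and 5.89 in CD8.1 T cells and 0.766, 0.722 and 0.933 in CD8.2 T cells. High samples were those of B6 CD8+ and CD8.1 T cells, with no overlap with the 6 low samples. The gap thus reversed, from -2.88 to 2.69, and both sides contributed, with CD8.1 T cells 2.92 above B6 CD4+ and CD8.2 T cells 2.66 below B6 CD8+ T cells on the log2 scale (interaction 5.58 ± 0.37 SE, adjusted p = 2.77e-07). Gpr15 overlaps Cpox on the opposite strand, and use of strand in counting is not stated. In bulk RNA, fewer cells that express a gene cannot be told apart from less RNA of that gene per cell, and this holds for every value here.

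Itgae (ENSMUSG00000005947.11, chr11:73090583-73147446) encodes CD103, the integrin subunit that binds E-cadherin on epithelium. Its levels were 2.91, 5.09 and 5.87 CPM in B6 CD4+ T cells, 234, 239.8 and 264 in B6 CD8+ T cells, 31.1, 28.5 and 27.6 in CD8.1 T cells and 102, 99.2 and 101 in CD8.2 T cells. The 4 groups did not overlap, in the order B6 CD8+, CD8.2, CD8.1 and B6 CD4+. The gap narrowed from -5.73 to -1.79, with a rise of 2.65 in the helper lineage and a fall of 1.29 in the cytotoxic lineage (interaction 3.93 ± 0.20 SE, adjusted p = 1.91e-08). Itgae overlaps Haspin on the opposite strand.

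Ly6c2 (ENSMUSG00000022584.14, chr15:75108158-75111970) encodes a surface Ly6C protein found on many CD8+ T cells. It was at 3.55, 3.92 and 4.64 CPM in B6 CD4+ T cells, 650.4, 714 and 930.1 in B6 CD8+ T cells, 16.3, 19.3 and 14.2 in CD8.1 T cells and 408, 401 and 411 in CD8.2 T cells. The same order without overlap was seen, and the gap narrowed from -7.56 to -4.61 (interaction 2.95 ± 0.20 SE, adjusted p = 3.93e-07). Its near copy Ly6c1, with which it can share reads, was higher in the helper lineage of both strains and had an interaction of -0.03 ± 0.36 (SE, adjusted p = 0.982).

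Gzmb (ENSMUSG00000015437.4, chr14:56258838-56262260) encodes granzyme B, a protease that cytotoxic cells release into their targets. It was at 0.455, 1.25 and 1.02 CPM in B6 CD4+ T cells, 0.983, 1.67 and 2.26 in B6 CD8+ T cells, 6.97, 5.13 and 5.08 in CD8.1 T cells and 1.02, 1.06 and 0.758 in CD8.2 T cells. All 3 CD8.1 samples lay above the other 9, which overlapped. The B6 gap was not called (-0.83), the CD8Dual gap was 2.62, and the strain difference was called in the helper lineage (2.64) and not in the cytotoxic lineage (-0.81). The interaction was 3.45 ± 0.49 (SE, adjusted p = 0.000978).

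Bases just before the annotated start were read from the RefSeq table on GRCm38.p6 for Gzmb, Ly6c2 and Fgl2, a reversed gene described next. They stand for an opened, a narrowed and a reversed gap, and the bases shown hold no annotated exon. The Fgl2 window was cut to 219 bases where an annotated exon begins. Ly6c2 has 2 RefSeq starts, and the 1 whose window needed no cut is shown. Capitals mark TGTGGT, the core that RUNX factors bind, or its other-strand form ACCACA. Each runs 5′ to 3′ on the strand of its gene.
Gzmb, chr14:56262335-56262584, minus strand: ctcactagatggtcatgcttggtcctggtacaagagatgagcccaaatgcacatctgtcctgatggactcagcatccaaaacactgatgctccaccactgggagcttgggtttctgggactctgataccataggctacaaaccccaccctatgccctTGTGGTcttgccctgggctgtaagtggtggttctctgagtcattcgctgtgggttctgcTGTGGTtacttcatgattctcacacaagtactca
Ly6c2, chr15:75111972-75112221, minus strand: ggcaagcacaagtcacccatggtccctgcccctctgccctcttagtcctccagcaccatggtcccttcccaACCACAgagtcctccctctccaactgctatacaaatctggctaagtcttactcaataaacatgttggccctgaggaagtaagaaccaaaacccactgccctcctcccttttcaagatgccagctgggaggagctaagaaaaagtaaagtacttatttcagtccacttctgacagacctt
Fgl2, chr5:21372423-21372641, plus strand: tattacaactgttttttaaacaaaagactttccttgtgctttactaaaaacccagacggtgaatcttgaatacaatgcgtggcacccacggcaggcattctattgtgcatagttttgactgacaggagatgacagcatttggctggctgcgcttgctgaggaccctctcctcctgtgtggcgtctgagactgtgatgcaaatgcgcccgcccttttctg
Gzmb held the core at 93 and 34 bases before its RefSeq start, Ly6c2 held it at 179 bases on the other strand, and Fgl2 held none in the 219 bases shown. The RefSeq start of Gzmb lies upstream of the gene position given above, which is from GENCODE M21, so distances from the latter are larger. The core stood in 21.5% of 205 such windows of 250 bases for 159 of the 245 genes and in 11.1% of 11276 windows of tested genes, and in 14.0% of all 32851 windows. The T-box half-site AGGTGT, or ACACCT, stood in 10.7%, 9.43% and 11.8% of the same windows. These shares are descriptions of letters, and binding was not measured.

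**Figure D3:**
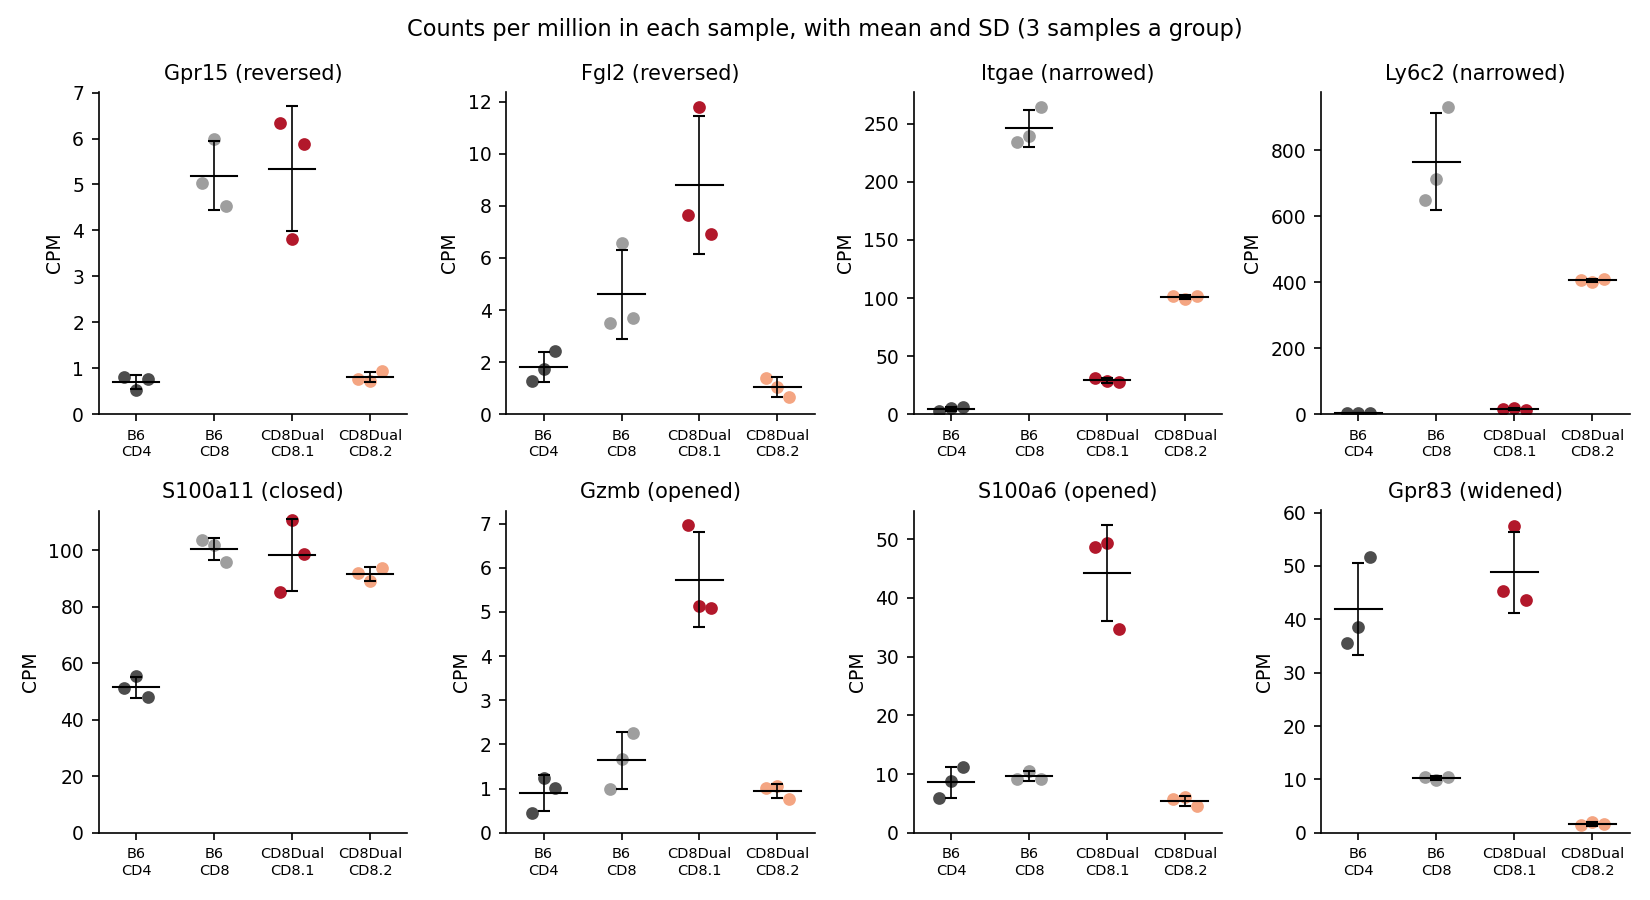
CPM in each of the 12 samples for 8 genes, on linear axes that start at 0, by group, with a point for each sample, a horizontal line for the mean and error bars for the SD of 3 samples. Gpr15 and Fgl2 are high in B6 CD8+ and CD8.1 T cells, Itgae and Ly6c2 keep the B6 order over a smaller range in CD8Dual mice, S100a11 is low in B6 CD4+ T cells alone, Gzmb and S100a6 are high in CD8.1 T cells, and Gpr83 is lowest in CD8.2 T cells.

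The reversed genes with the smallest p were Coro2a, Gpr15, Ccr2, Steap3 and Fgl2, and all 5 moved on both sides. Coro2a, a coronin that binds actin, was at 9.37, 9.83 and 9.31 CPM in B6 CD4+ T cells, 52.0, 43.3 and 34.4 in B6 CD8+ T cells, 24.2, 24.6 and 22.9 in CD8.1 T cells and 7.07, 4.67 and 8.08 in CD8.2 T cells. Its gap went from -2.19 to 1.83 (interaction 4.01 ± 0.23 SE, adjusted p = 7.54e-08), and the 4 groups did not overlap. Ccr2, the receptor that brings cells toward CCL2 in inflammation, was at 1.91, 4.14 and 3.19 CPM in B6 CD4+ T cells, 11.1, 10.6 and 17.4 in B6 CD8+ T cells, 23.8, 13.8 and 10.6 in CD8.1 T cells and 2.68, 3.11 and 2.51 in CD8.2 T cells. Its gap went from -2.07 to 2.55 (interaction 4.62 ± 0.44 SE, adjusted p = 1.93e-05), with the lowest CD8.1 sample level with the lowest B6 CD8+ sample. Fgl2, a secreted fibrinogen-like protein that restrains T cell responses, was at 1.27, 1.72 and 2.42 CPM in B6 CD4+ T cells, 3.52, 6.58 and 3.70 in B6 CD8+ T cells, 7.64, 11.8 and 6.93 in CD8.1 T cells and 1.40, 1.06 and 0.671 in CD8.2 T cells. CD8.1 T cells held its 3 highest samples, and its gap went from -1.35 to 3.11 (interaction 4.46 ± 0.47 SE, adjusted p = 5.49e-05). Steap3, a ferric reductase of iron uptake, followed the same course with gaps of -1.82 and 2.39 (interaction 4.21 ± 0.43 SE, adjusted p = 3.67e-05).

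Smaller reversals were seen in genes that memory or activated T cells express. Cd44, the hyaluronan receptor used to mark memory T cells, was at 33.4, 37.5 and 34.2 CPM in B6 CD4+ T cells, 42.4, 49.7 and 61.0 in B6 CD8+ T cells, 77.8, 67.9 and 70.3 in CD8.1 T cells and 49.5, 60.1 and 55.9 in CD8.2 T cells. Its CD8.1 samples were the highest of all, its strain difference was 1.04 in the helper lineage and 0.11 (not called) in the cytotoxic lineage, and the interaction was 0.92 ± 0.16 (SE, adjusted p = 0.00601). Vim, the intermediate filament vimentin, and Tnfrsf1b, the TNF receptor TNFR2, reversed with interactions of 0.62 ± 0.10 (SE, adjusted p = 0.00309) and 0.64 ± 0.10 (SE, adjusted p = 0.0024). A further reversed gene, PVRIG, an inhibitory receptor of the TIGIT group, had counts of 1, 1 and 1 in B6 CD4+ T cells, 16, 19 and 36 in B6 CD8+, 11, 5 and 13 in CD8.1 and 2, 1 and 6 in CD8.2 T cells, so that its fitted fold depends on the prior count and is not given.

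Called genes of the cytotoxic granule list narrowed or opened, and 0 reversed. Of 19 tested genes, 6 were called, all positive, 5 narrowed and 1, Gzmb, opened. The list's median gap was -1.03 in B6 and -0.72 in CD8Dual mice. Without the first CD8.1 library 8 were positive and 0 negative. Each count of called list members, here and below, is to be set against 1.87% of all tested genes, or 10.5% without that library. The lists were chosen with earlier results of these data known. Gpr15, Itgae, Gzmb and Ly6c2, markers set in advance, are among the called members of some lists. The shares are thus descriptions and not tests. Ccl5, a chemokine stored by cytotoxic and memory cells, was at 1.41, 2.11 and 2.76 CPM in B6 CD4+ T cells, 126, 141 and 97.8 in B6 CD8+ T cells, 4.20, 5.62 and 4.65 in CD8.1 T cells and 26.6, 23.2 and 25.5 in CD8.2 T cells. Its fall of 2.27 in the cytotoxic lineage was larger than its rise of 1.20 in the helper lineage, and the groups did not overlap (interaction 3.47 ± 0.26 SE, adjusted p = 1.36e-06). Gzmm, a granule protease, changed in the cytotoxic lineage alone, from 25.5, 27.4 and 28.4 CPM in B6 CD8+ to 6.26, 6.45 and 5.60 CPM in CD8.2 T cells (interaction 2.45 ± 0.33 SE, adjusted p = 0.000678). Nkg7, a granule membrane protein, and Cst7, which inhibits granule proteases, were called in the helper lineage alone, with rises of 1.45 and 1.41 in CD8.1 over B6 CD4+ T cells. Nkg7 remained far from equal, at 8.83, 9.64 and 7.22 CPM in CD8.1 against 371, 434 and 417 CPM in CD8.2 T cells. Xcl1, a chemokine that attracts cross-presenting dendritic cells, moved on both sides (interaction 2.08 ± 0.41 SE, adjusted p = 0.0128). Perforin, Prf1, had an interaction of -0.56 ± 0.23 (SE, adjusted p = 0.319), which was not called.

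Among 18 markers of memory CD8+ T cells, 9 were called and all 9 were positive. The narrowed ones numbered 7, with Itgb1 closed and Cd44 reversed, and Ccl5 and Gzmm also stand in the granule list. Their median gap was -1.70 in B6 and -0.93 in CD8Dual mice, and 12 were positive without the first CD8.1 library. Il2rb, the IL-2 and IL-15 receptor chain that marks memory CD8+ T cells, was at 83.5, 91.0 and 111 CPM in B6 CD4+ T cells, 473, 454 and 493 in B6 CD8+ T cells, 246, 257 and 223 in CD8.1 T cells and 303, 332 and 313 in CD8.2 T cells. The 4 groups stood apart, in the order B6 CD8+, CD8.2, CD8.1 and B6 CD4+ (interaction 1.93 ± 0.13 SE, adjusted p = 4.78e-07). Il18rap, a subunit of the IL-18 receptor, moved on both sides (interaction 2.90 ± 0.44 SE, adjusted p = 0.00155). Itgb1, the β1 integrin chain, rose in the helper lineage from 81.6, 86.9 and 101 to 156, 167 and 139 CPM, and the CD8Dual gap of 0.16 was not called (interaction 0.89 ± 0.14 SE, adjusted p = 0.0024). Of the T-box factors of the memory programme, Tbx21 had an interaction of 1.14 (adjusted p = 0.0521) and Eomes of 0.93 (adjusted p = 0.162), and neither was called.

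Chemokine and homing receptors had 6 of 22 members called, all positive, 5 of them on both sides. Cxcr6, a receptor of tissue-resident and liver T cells, was at 2.64, 2.97 and 3.02 CPM in B6 CD4+ against 16.5, 10.5 and 10.3 CPM in CD8.1 T cells, and the gap went from -6.58 to -3.91 (interaction 2.67 ± 0.21 SE, adjusted p = 2.26e-06). It overlaps Fyco1 on the opposite strand. Cxcr3, which brings effector and memory cells to inflamed sites, was called in the helper lineage alone (1.38), with 104, 112 and 135 CPM in B6 CD8+ and 105, 107 and 109 CPM in CD8.2 T cells (interaction 1.51 ± 0.21 SE, adjusted p = 0.000886). Cxcr5, which leads cells into B cell follicles, rose in both lineages of CD8Dual mice, by 1.33 and 0.76, and its difference of 0.57 (adjusted p = 0.0301) was called in only 4 of the 12 fits that each left out 1 library. The list's median interaction was 0.47, and 8 were positive and 1 negative without the first CD8.1 library.

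**Figure D4:**
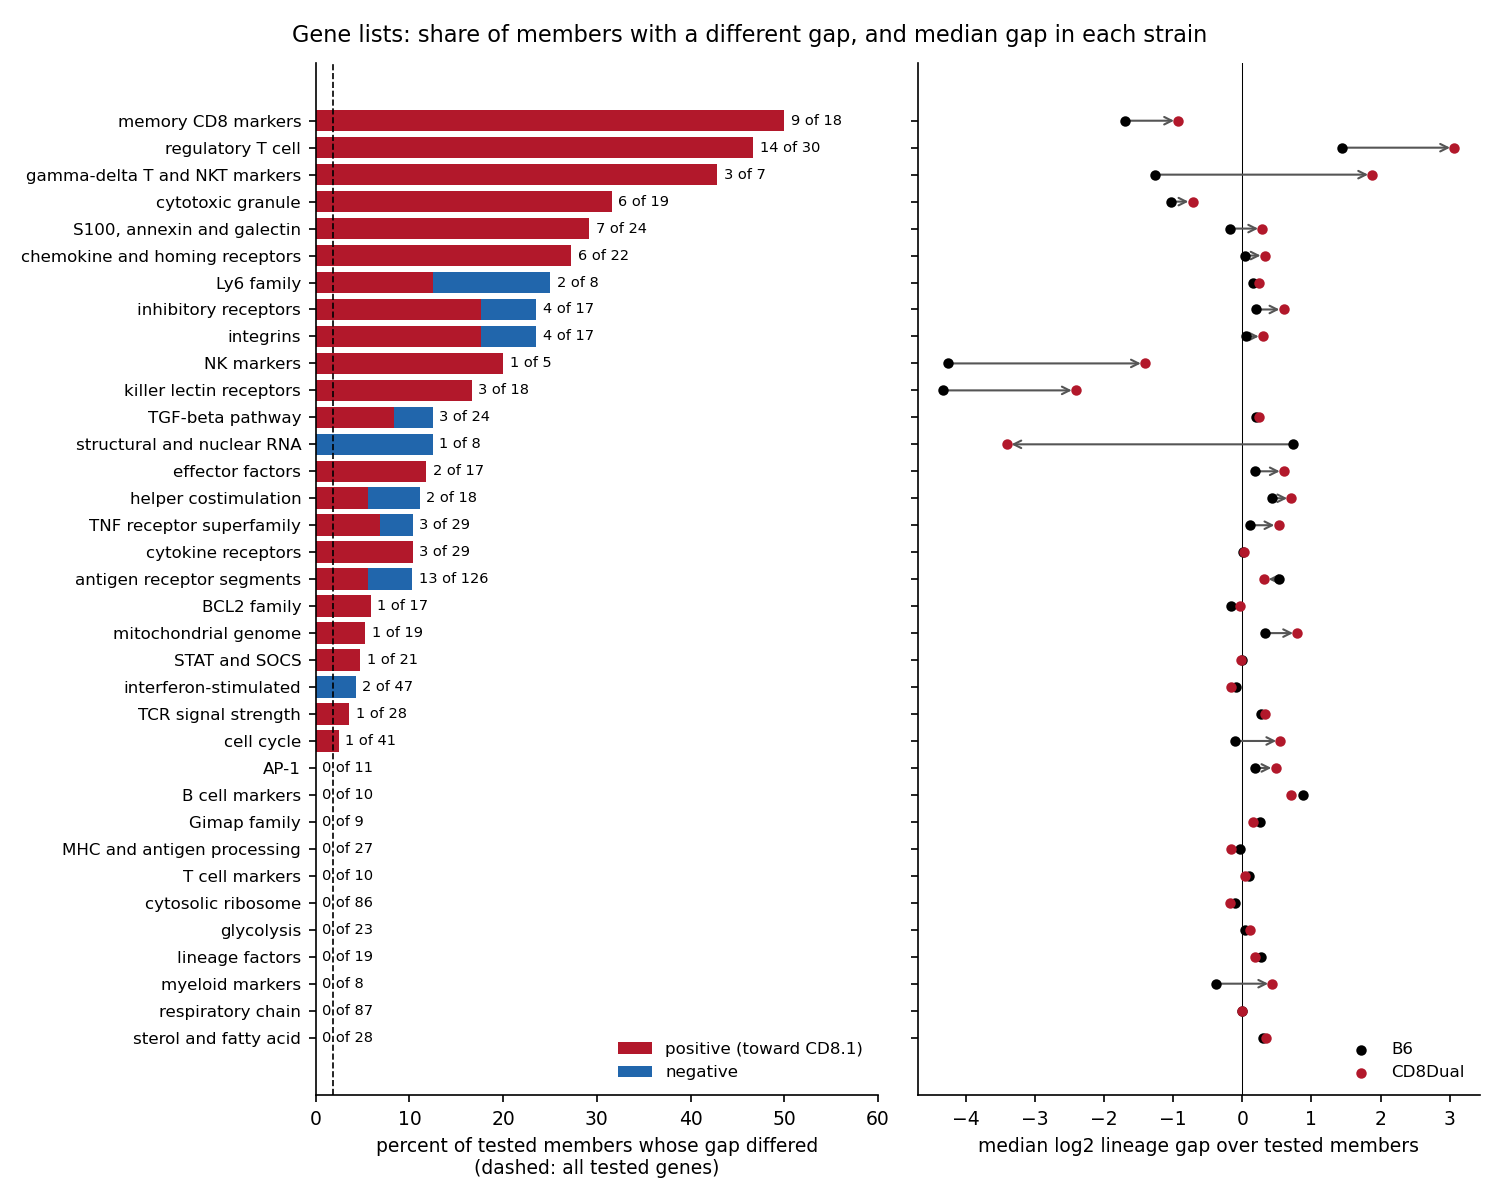
Left, percent of tested members of each gene list whose lineage gap differed between the strains, in red for positive and blue for negative, with a dashed line at the 1.87% of all 13118 tested genes. Right, median log2 gap of each list in B6 (black) and in CD8Dual mice (red), joined by an arrow where the medians were apart. The medians of the memory CD8 and cytotoxic granule lists moved toward 0, and that of the regulatory T cell list moved away from 0, from 1.45 to 3.07.

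Genes of regulatory T cells, the FOXP3-dependent cells that restrain immune responses, had 14 of 30 tested members called, all positive. Of these, 5 widened, 4 opened, 2 narrowed, 2 reversed and 1 closed. Their median gap was 1.45 in B6 and 3.07 in CD8Dual mice, and 17 were positive without the first CD8.1 library. Higher levels in CD8.1 relative to B6 CD4+ cells were called for 27 of the 30 and lower ones for 0, against 6.94% and 5.82% of all genes. In the cytotoxic lineage 3 were higher and 4 lower in CD8.2 relative to B6 CD8+ cells, against 3.29% and 4.66% of all genes. Not every called member is particular to these cells: Itgae, Gpr15, Dusp4 and Nt5e are expressed by other T cells too.

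The members that widened or opened were of several kinds. Gpr83, a receptor enriched in regulatory T cells, was at 35.5, 38.5 and 51.8 CPM in B6 CD4+ T cells, 10.5, 9.85 and 10.4 in B6 CD8+ T cells, 45.3, 57.6 and 43.6 in CD8.1 T cells and 1.36, 1.94 and 1.63 in CD8.2 T cells. CD8.2 samples were the lowest, the helper groups overlapped, and the cytotoxic lineage carried the change (-2.65, interaction 2.87 ± 0.24 SE, adjusted p = 4e-06). Nrp1, a semaphorin co-receptor of thymus-derived regulatory T cells, was at 9.87, 14.1 and 14.5 CPM in B6 CD4+ T cells, 1.23, 2.25 and 1.40 in B6 CD8+ T cells, 56.1, 46.5 and 46.3 in CD8.1 T cells and 2.38, 2.44 and 2.01 in CD8.2 T cells. Here the CD8.1 samples stood above all others and the helper lineage carried the change (1.95, interaction 1.51 ± 0.29 SE, adjusted p = 0.0109). Ikzf2, which encodes Helios, was at 6.78, 6.25 and 10.2 CPM in B6 CD4+ T cells, 2.91, 3.31 and 7.17 in B6 CD8+ T cells, 37.2, 22.7 and 21.6 in CD8.1 T cells and 1.79, 2.89 and 2.68 in CD8.2 T cells. No CD8.1 sample overlapped another group, and the interaction was 2.65 ± 0.45 (SE, adjusted p = 0.00431). Tigit, an inhibitory receptor for CD155, was at 3.09, 4.44 and 6.72 CPM in B6 CD4+ T cells, 3.89, 3.49 and 5.15 in B6 CD8+ T cells, 18.6, 18 and 11.9 in CD8.1 T cells and 0.809, 1.89 and 1.37 in CD8.2 T cells. Its gap went from 0.20, not called, to 3.60, with a rise in CD8.1 and a fall in CD8.2 T cells (interaction 3.40 ± 0.42 SE, adjusted p = 0.000267). Ikzf4, Capg and Dusp4, a transcription factor, an actin-capping protein and a MAP kinase phosphatase, widened with interactions of 1.06, 0.75 and 2.21. Entpd1, the ectoenzyme CD39, opened with an interaction of 1.5 ± 0.33 (SE, adjusted p = 0.0287), and it was called in 4 of the 12 fits that left out 1 library. Gpr55, a lipid receptor, narrowed with an interaction of 1.81, whereas Plagl1, a zinc finger factor, opened on few counts (5, 7 and 19 in B6 CD8+ and 2, 2 and 4 in CD8.2 T cells) and was called in 4 of the 12 fits that left out 1 library, so no fold is given.

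Foxp3 itself did not have a gap that was called as different. It was at 32.6, 37.8 and 44.6 CPM in B6 CD4+ T cells, 0.287, 0.182 and 0.529 in B6 CD8+ T cells, 102, 149 and 168 in CD8.1 T cells and 0.809, 1.44 and 1.46 in CD8.2 T cells. CD8.1 samples were the highest, 1.87 above B6 CD4+ T cells on the log2 scale (adjusted p = 1.18e-05), but CD8.2 T cells were also 1.96 above B6 CD8+ T cells (adjusted p = 0.019), and the interaction was -0.09 ± 0.45 (SE, adjusted p = 0.951). The level in both cytotoxic groups was low, so the fitted gap there rests on few reads. Il2ra, Ctla4 and Izumo1r, other core genes of regulatory T cells, had interactions of 0.84, -0.37 and 0.58 with adjusted p of 0.244, 0.669 and 0.0728. Whether a different share of regulatory T cells in the sorted CD8.1 cells plays a part in these gaps was not tested.

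The S100, annexin and galectin list, calcium-binding and cytoskeletal proteins that rise in activated T cells, had 7 of 24 members called, all positive. Of these 4 opened, and 1 each reversed (Vim), closed (S100a11) and narrowed (Ahnak). The median gap went from -0.18 in B6 to 0.29 in CD8Dual mice, and 8 were positive without the first CD8.1 library. Myeloid markers also stood higher in CD8.1 T cells: of 8 tested, 5 were called as higher than in B6 CD4+ T cells, against 6.94% of all tested genes. The median of the 8 was 1.37 on the log2 scale. Their summed level was 103 to 118 CPM in CD8.1 T cells against 69.1 to 85.7 in B6 CD4+, 81.8 to 83.6 in B6 CD8+ and 82.6 to 107 in CD8.2 T cells, and their part in the values of this list was not tested. S100a6 was at 5.91, 8.75 and 11.1 CPM in B6 CD4+ T cells, 9.13, 10.6 and 9.09 in B6 CD8+ T cells, 48.6, 49.4 and 34.8 in CD8.1 T cells and 5.79, 6.11 and 4.52 in CD8.2 T cells. The CD8.1 samples were above the rest, the B6 groups overlapped, and CD8.2 samples lay below B6 CD8+ samples (interaction 3.19 ± 0.28 SE, adjusted p = 8.61e-06). S100a11 was at 51.3, 55.4 and 47.9 CPM in B6 CD4+ T cells, 103, 102 and 95.9 in B6 CD8+ T cells, 85.3, 111 and 98.6 in CD8.1 T cells and 92.0, 88.9 and 93.8 in CD8.2 T cells. Only the B6 CD4+ samples were low, and CD8.1 samples overlapped both cytotoxic groups (gap -0.96 in B6 and 0.10 in CD8Dual mice, interaction 1.06 ± 0.13 SE, adjusted p = 0.000206). Lgals1, the secreted galectin-1, opened with a rise of 1.09 in the helper and a fall of 0.68 in the cytotoxic lineage (interaction 1.76 ± 0.26 SE, adjusted p = 0.00139). Anxa2 and S100a10, which bind each other at the membrane, opened in the helper lineage, by 1.42 and 0.73. Ahnak, a very large scaffold protein at the membrane, narrowed from both sides (interaction 1.86 ± 0.20 SE, adjusted p = 6.9e-05).

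Other genes with small p opened, widened or narrowed. Osbpl3, an oxysterol-binding protein, Nebl, a nebulin relative, Fam129a and Gsto1, a glutathione transferase, opened on both sides with interactions of 3.95, 3.67, 1.35 and 1.29, and Gsto1 overlaps Cfap43 on the opposite strand. Myo1f, a class I myosin, narrowed on both sides (interaction 3.05 ± 0.19 SE, adjusted p = 1.57e-07). Prg4, the secreted lubricin, was at 4.96, 5.95 and 3.66 CPM in B6 CD4+ T cells, 1.19, 1.35 and 1.06 in B6 CD8+ T cells, 13.8, 16.2 and 19 in CD8.1 T cells and 0.426, 0.333 and 0.379 in CD8.2 T cells. Its groups did not overlap and the gap widened from 2.01 to 5.40 (interaction 3.39 ± 0.34 SE, adjusted p = 3.6e-05), but Prg4 overlaps Tpr on the opposite strand. Chn2, which switches off RAC GTPases and overlaps Gm15526 on the opposite strand, widened on both sides and Apol9b in the cytotoxic lineage (interactions 2.68 ± 0.26 SE, adjusted p = 2.48e-05 and 1.73 ± 0.26 SE, adjusted p = 0.00157). Wfikkn2, a secreted inhibitor that binds myostatin, widened in the helper lineage (interaction 1.02 ± 0.17 SE, adjusted p = 0.00292). Cish, a feedback inhibitor of cytokine signals, widened in the helper lineage, from 16.4, 15.6 and 17.3 CPM in B6 CD4+ to 26.1, 29.0 and 26.8 CPM in CD8.1 T cells (interaction 0.98 ± 0.19 SE, adjusted p = 0.00962). It was the 1 called member of 21 STAT and SOCS genes (4.76%, against 1.87% of all tested genes).

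Closed gaps came from either lineage. Cdk6, a kinase that drives G1 progression, was at 12, 9.96 and 14.2 CPM in B6 CD4+ T cells, 26.4, 26.6 and 33.7 in B6 CD8+ T cells, 15.7, 15.7 and 12.2 in CD8.1 T cells and 12.9, 14.7 and 15.8 in CD8.2 T cells. High values were limited to the B6 CD8+ samples, so the B6 gap of -1.26 was 0.00 in CD8Dual mice through the cytotoxic lineage (-0.99, interaction 1.26 ± 0.21 SE, adjusted p = 0.00315). It was the 1 called member of 41 cell cycle genes (2.44%, against 1.87% of all tested genes). Of these 41 genes, 37 had positive estimates, and the median estimate was 0.77. An unadjusted p under 0.05 was seen in 16, against 1741 of all 13118 tested genes. In CD8.1 relative to B6 CD4+ T cells 10 were called as higher and 0 as lower, against 6.94% and 5.82% of all tested genes. In CD8.2 relative to B6 CD8+ T cells 1 was higher and 2 were lower. Among the 41 genes 2 had a gap difference called as positive and 1 as negative without the first CD8.1 library. Gna15, a G protein α subunit, closed through the helper lineage, from 1.23, 1.72 and 2.98 CPM in B6 CD4+ to 7.35, 8.76 and 5.94 CPM in CD8.1 T cells (interaction 2.50 ± 0.33 SE, adjusted p = 0.000546). Serp2 closed on both sides (interaction 2.63 ± 0.36 SE, adjusted p = 0.00068). Nt5e, the ectoenzyme CD73, and Il12rb1, a subunit of the IL-12 receptor, closed through the helper lineage, by 0.75 and 1.01, the second in only 5 of the 12 fits that left out 1 library.

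The killer lectin receptors, which bind MHC class I and its relatives on NK and CD8+ T cells, had 3 of 18 members called, all positive, and 5 were positive and 2 negative without the first CD8.1 library. Klre1 gave counts of 0, 1 and 1 in B6 CD4+ T cells, 138, 192 and 163 in B6 CD8+, 7, 5 and 2 in CD8.1 and 8, 10 and 14 in CD8.2 T cells. Its high level was thus seen in B6 CD8+ T cells alone, and CD8.2 T cells were 3.98 lower on the log2 scale. Klrc1, which encodes NKG2A, fell likewise from 7.57, 8.14 and 7.26 CPM in B6 CD8+ to 1.96, 1.22 and 1.43 CPM in CD8.2 T cells. Klra1 was called with 2, 0 and 0 counts in B6 CD4+ and 6, 18 and 10 in CD8.1 T cells, and genes of the Klra family share near-identical sequence, so reads may be split among them. Fitted folds against B6 CD4+ T cells depend on the prior count in all 3 genes. The median gap of the killer lectin list was -4.33 in B6 and -2.41 in CD8Dual mice. Ncr1, an NK marker, was at or under 0.345 CPM in all 12 libraries. The summed level of 6 NK markers, Klre1 among them, was 9.66 to 16.8 CPM in B6 CD8+ and 4.34 to 6.22 in CD8.2 T cells. It was 0.819 to 1.72 CPM in B6 CD4+ and 2.18 to 2.87 in CD8.1 T cells. The part of NK cells in the values of this list was not tested.

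Constant segments of the γ chain of the γδ T cell receptor were low but reversed or opened. Tcrg-C1 was at 0.318, 0.474 and 0.425 CPM in B6 CD4+ T cells, 0.983, 1.64 and 0.914 in B6 CD8+ T cells, 2.20, 2.39 and 1.66 in CD8.1 T cells and 0.383, 0.667 and 0.437 in CD8.2 T cells. B6 CD8+ and CD8.1 T cells were high and did not overlap the others (interaction 3.63 ± 0.50 SE, adjusted p = 0.000753). Tcrg-C2 reversed and Tcrg-C4 opened, with adjusted p of 0.0053 and 0.00983, so 3 of 7 tested markers of γδ T and NKT cells were called. Trdc was at 12 to 12.8 CPM in CD8.1 against 10.4 to 11.5 in B6 CD4+, 7.16 to 8.23 in B6 CD8+ and 7.41 to 8.60 in CD8.2 T cells. Zbtb16, the defining factor of NKT cells, was at 0 in all 6 B6 libraries and at 0.191 to 1.02 CPM in CD8.1 T cells. The summed level of the 10 markers was 23.4 to 28.3 CPM in CD8.1 T cells and 11.4 to 16.9 CPM across the other groups. The part of such cells in the CD8.1 values was not tested.

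Inhibitory receptors were mixed, with 4 of 17 called. Besides Tigit and PVRIG, Cd160, a receptor for HVEM, was positive and narrowed on both sides (interaction 1.90 ± 0.31 SE, adjusted p = 0.00289). Lag3, a receptor for MHC class II, was negative. It was at 7.60, 7.93 and 9.27 CPM in B6 CD4+ T cells, 2.70, 2.18 and 2.12 in B6 CD8+ T cells, 9.36, 9.07 and 10.1 in CD8.1 T cells and 6.13, 8.06 and 5.10 in CD8.2 T cells. The rise was in CD8.2 T cells, and the gap narrowed from 1.82 to 0.58 (interaction -1.24 ± 0.25 SE, adjusted p = 0.0131). In the fit without the first CD8.1 library 5 members of the list were positive and 1 was negative.

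Integrins had 4 of 17 called. Itgae and Itgb1 have been described, and Itga2, the collagen-binding α2 chain, opened through the helper lineage (interaction 2.40 ± 0.44 SE, adjusted p = 0.00679). Itgb3 was negative and narrowed, with 186, 173 and 217 CPM in B6 CD4+ and 142, 159 and 145 CPM in CD8.1 T cells (interaction -0.58 ± 0.14 SE, adjusted p = 0.0413), and it was called in 4 of the 12 fits that left out 1 library. With the first CD8.1 library left out 3 integrins were positive and 1 was negative. In the TGF-β list 3 of 24 were called, and without that library 6 were positive and 1 negative. Eng, the co-receptor endoglin, and Pmepa1, a feedback inhibitor of the pathway, narrowed through falls of 0.81 and 0.47 in the cytotoxic lineage, and Eng overlaps Fpgs on the opposite strand. Tgfbr3, the co-receptor betaglycan, narrowed through a fall of 0.76 in the helper lineage (interaction -0.97 ± 0.17 SE, adjusted p = 0.00538).

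Of 18 genes of helper costimulation, 2 (11.1%) were called, and 2 were positive and 1 negative without the first CD8.1 library. Their strain difference in the helper lineage was called in 9, as a rise in CD8.1 T cells in 8 and a fall in 1, against 6.94% and 5.82% of all tested genes. Cd40lg, the ligand with which helper cells license B cells and dendritic cells, was at 108, 109.8 and 115 CPM in B6 CD4+ T cells, 0.983, 0.982 and 0.674 in B6 CD8+ T cells, 84.8, 88.1 and 94.0 in CD8.1 T cells and 1.19, 1.5 and 1.43 in CD8.2 T cells. Helper samples did not overlap between the strains, with CD8.1 lower, and the gap narrowed from 6.95 to 6.01 (interaction -0.94 ± 0.19 SE, adjusted p = 0.0179). Tnfsf14, the HVEM ligand LIGHT, was positive and narrowed through a rise in CD8.1 T cells (interaction 1.54 ± 0.30 SE, adjusted p = 0.0103). Cytokine receptors had 3 of 29 called (Il2rb, Il18rap and Il12rb1), the TNF receptor superfamily and its ligands 3 of 29 (Tnfrsf1b, Tnfsf14 and Cd40lg), and effector transcription factors 2 of 17. Leaving out the first CD8.1 library, these lists had 6 positive and 0 negative, 4 positive and 1 negative, and 4 positive and 0 negative members. Among the effector factors, Hopx narrowed on both sides (1.62 ± 0.15 SE, adjusted p = 1.46e-05) and Bhlhe40 opened in the helper lineage (1.81 ± 0.40 SE, adjusted p = 0.0248), while Hopx overlaps the antisense gene Hopxos. Pmaip1, which encodes the death protein NOXA, was the 1 called member of 17 BCL2 family genes (narrowed, 1.45 ± 0.30 SE, adjusted p = 0.019). Dusp4 was the 1 called of 28 genes that report the strength of the T cell receptor signal. These shares were 5.88% and 3.57%, against 1.87% of all tested genes. The counts without that library were 4 positive and 1 negative for the BCL2 family, and 4 positive and 0 negative for signal strength.

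Negative differences were fewer and came from other genes. Ly6a, the surface protein Sca-1, narrowed through a fall in the helper lineage from 248, 257 and 249.9 CPM in B6 CD4+ to 159, 150.4 and 126 CPM in CD8.1 T cells (interaction -0.69 ± 0.15 SE, adjusted p = 0.0196). Interferon-stimulated genes had 2 of 47 (4.26%, against 1.87% of all tested genes) called, both negative and closed through the cytotoxic lineage. Leaving out the first CD8.1 library, 5 were negative and 0 positive, in a fit that called 10.5% of all tested genes. Iigp1, an interferon-induced GTPase, rose from 12.5, 12.7 and 13.3 CPM in B6 CD8+ to 36.4, 33.6 and 32.5 CPM in CD8.2 T cells (interaction -1.12 ± 0.20 SE, adjusted p = 0.00637). Ifi44 was the other (interaction -1.80 ± 0.43 SE, adjusted p = 0.0453), called in 2 of the 12 fits that left out 1 library. Antigen receptor segments had 13 of 126 called, 7 positive and 6 negative, all closed or narrowed, whereas 11 were positive and 14 negative without the first CD8.1 library. Trbv26 was at 27.6, 29.2 and 26.1 CPM in B6 CD4+ T cells, 13.8, 14.3 and 14.0 in B6 CD8+ T cells, 20.6, 18.6 and 15.0 in CD8.1 T cells and 21.8, 20.4 and 20.9 in CD8.2 T cells. The B6 groups stood apart and the CD8Dual groups lay between them, with the gap of -0.22 not called (interaction -1.20 ± 0.15 SE, adjusted p = 0.000291). Trbv31 and Trbv17 narrowed in opposite directions, with gaps of 2.15 and -1.28 in B6 and 1.35 and -0.29 in CD8Dual mice.

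Of 8 tested structural and nuclear RNAs 1, Lars2, was called, and without the first CD8.1 library it was again 1, negative. Counts at Lars2, the mitochondrial leucyl-tRNA synthetase gene, were 4711, 3764 and 3352 CPM in B6 CD4+ T cells, 4688, 1459.6 and 2446 in B6 CD8+ T cells, 370.3, 121 and 214 in CD8.1 T cells and 897, 1667 and 6735 in CD8.2 T cells. CD8.1 samples were below all others, and the CD8.2 samples spread widely (interaction -4.18 ± 0.84 SE, adjusted p = 0.0145). Gm42418, a structural RNA of the same list, was at 895 to 2003 CPM in CD8.1, 2941 to 7151 in B6 CD4+, 2618 to 8877 in B6 CD8+ and 1945 to 34007 in CD8.2 T cells, so that the CD8Dual groups overlapped, and it was not called. Both Lars2 and Gm42418 had their highest value in the third CD8.2 library. Whether the counts at Lars2 are mRNA of the synthetase, and the part of RNA preparation in these values, were not tested. Of 19 mitochondrially encoded genes edgeR called 1, mt-Nd5, a subunit of complex I (interaction 1.00 ± 0.21 SE, adjusted p = 0.0227), and it overlaps mt-Nd6 on the opposite strand. DESeq2 called 5 of the 19, against 410 of all 13118 tested genes. Without the first CD8.1 library 5 were positive and 0 negative. The helper-lineage strain difference was positive and called in 7 of the 19, against 6.94% of all tested genes. Summed over the list, CD8.1 libraries held 47518 to 56437 CPM, above the 30607 to 37577 of B6 CD4+, 24114 to 32790.0 of B6 CD8+ and 18385 to 31959 of CD8.2 libraries.

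Other lists had 0 called members by edgeR with all libraries. For reference, 1741 of all 13118 tested genes had an unadjusted p under 0.05, and DESeq2 called 410. Without the first CD8.1 library 779 were positive and 599 negative. Of 19 tested lineage factors, 5 had an unadjusted p under 0.05, DESeq2 called 1, and without the first CD8.1 library 2 were positive and 2 negative. For the 86 cytosolic ribosomal proteins these counts were 12 and 1, then 12 positive and 15 negative, and for 87 nuclear-encoded genes of the respiratory chain 9 and 1, then 7 positive and 8 negative. The counts of unadjusted and DESeq2 calls were 0 and 0 for 11 AP-1 genes, 5 and 0 for 23 glycolysis genes, 7 and 0 for 28 genes of sterol and fatty acid synthesis, 2 and 0 for 9 Gimap GTPases and 4 and 1 for 27 genes of MHC and antigen processing. Among markers of other cells they were 2 and 0 for 10 B cell, 4 and 1 for 8 myeloid and 0 and 0 for 4 erythroid markers, while 1 of 5 NK markers, Klre1, was called by edgeR. Zbtb7b was at 159, 154 and 164 CPM in B6 CD4+ T cells, 1.19, 0.691 and 0.914 in B6 CD8+ T cells, 117, 173 and 172 in CD8.1 T cells and 2.00, 2.11 and 1.60 in CD8.2 T cells. The helper groups overlapped, and the interaction of -1.05 ± 0.30 (SE, adjusted p = 0.104) was not called. Runx3 had an interaction of 0.19 ± 0.20 (SE, adjusted p = 0.718). A difference that misses the threshold does not show that the gaps were equal.

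Of the 245 genes, 137 were called in each of the 12 fits that left out 1 library, among them 18 of 27 reversed, 34 of 62 closed, 53 of 77 narrowed, 22 of 58 opened and 10 of 21 widened genes. Leaving out a library other than the first CD8.1 one gave 167 to 253 calls, the fewest without the third CD8.2 library. The plot of calls by left-out library shows that positive differences outnumbered negative ones in every fit.

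**Figure D5:**
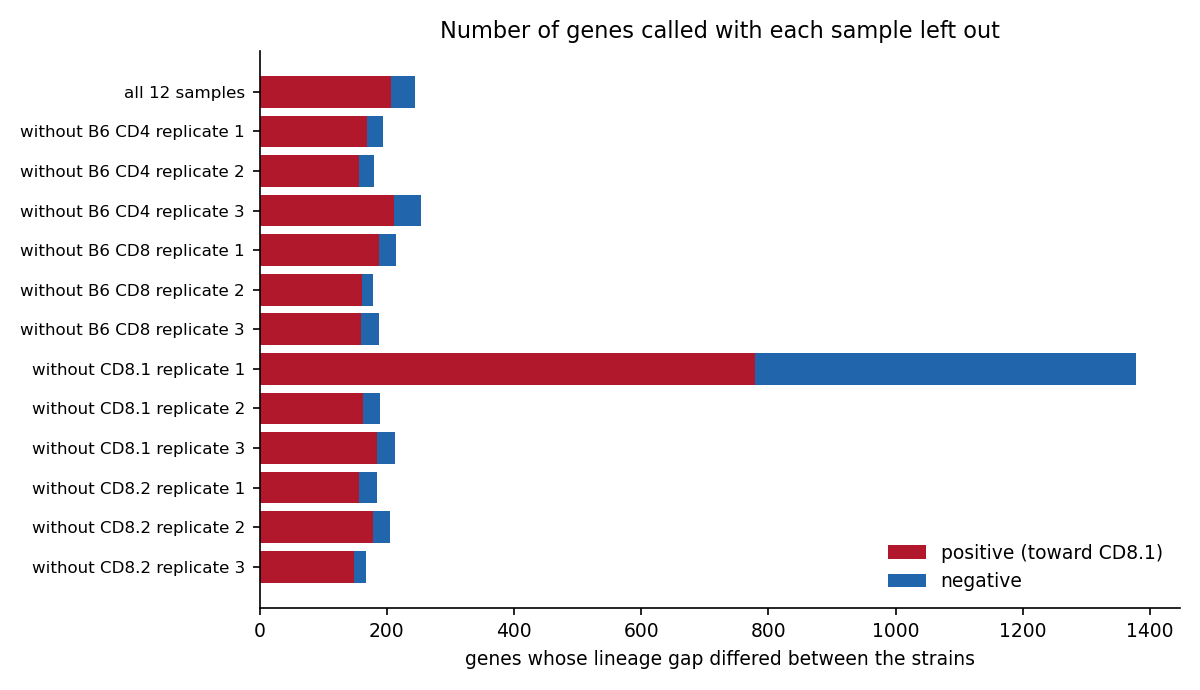
Number of genes whose lineage gap differed between the strains, with all 12 libraries and with each left out in turn. Bars are horizontal and stacked, with positive genes in red and negative genes continuing to the right in blue. Leaving out the first CD8.1 library gave 779 positive and 599 negative genes, and with any other library left out the total was 167 to 253.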

How the data were processed

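RNA-seq of sorted LN T cells was analysed in 4 groups of 3 samples. Per the submitters' processing notes and the study's methods, read pairs were aligned to mm10 by STAR and RSEM gave gene-level counts, deposited by the authors as whole numbers without normalization. The notes also name limma. Versions, the annotation release and the use of strand are not given in the sources used here. All 12 columns of the table matched a sample by name, with 0 left unmapped.

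The fit used edgeR 4.0.16 under R 4.3.3 (TMM, filterByExpr, glmQLFit, glmQLFTest), which left 13118 of 49585 genes. A mean per group was fitted to all 12 samples, and the interaction, both lineage gaps and both strain differences were tested in that model with Benjamini-Hochberg adjustment over all tested genes, called at an adjusted p under 0.05. The code was tested on simulated data. The biological coefficient of variation was 11.2%, and 3 counts in a library, the floor used for detection, were 0.0875 to 0.167 CPM. This floor covers counting error only, whereas SEs include the spread between samples. Gene positions came from GENCODE M21 on GRCm38 and upstream sequences from RefSeq on GRCm38.p6.

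Members and lists were chosen with earlier results of these data known. Named genes were the 4 markers Gpr15, Itgae, Gzmb and Ly6c2, the co-receptor genes, called members of 37 gene lists, and the 5 genes with the smallest p in each class, 94 in all. Some called list members are not reported here. Genes named from lists without being called (such as Foxp3, Zbtb7b and Runx3) were chosen after their values were seen.

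Replicates were compared before averaging, and no pair agreed within sampling noise (chi-square of 8.21 to 79.5 for each gene on average). Same-numbered B6 samples deviated together, with correlations of 0.126, 0.138 and 0.257, while those of CD8Dual samples were -0.0039, 0.0905 and 0.119. The numbers come from the labels, so a block by replicate number, within each strain or shared, was an alternative. Further alternatives were DESeq2 1.42.0 (Wald test, or size factors in edgeR), limma 3.58.1 voom with sample weights, robust edgeR, no filter, a mean of at least 1 CPM, stricter thresholds, no antigen receptor segments, and each sample left out. List counts without the first CD8.1 library were added after seeing the data. Plots were made in Python 3.11.15 (matplotlib 3.10.9).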

Additional observations from a re-analysis of the deposited data

Results flagged for a closer look

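For 245 of the 13118 tested genes the lineage gap itself differed between the strains by the interaction test. The values are given here once for the genes with the smallest p in each class, as log2 differences with positive values toward CD8.1 T cells.

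Among reversed gaps the difference was 5.58 for Gpr15, 4.01 for Coro2a, 4.62 for Ccr2, 4.21 for Steap3 and 4.46 for Fgl2, and each gene was up in CD8.1 relative to B6 CD4+ cells and down in CD8.2 relative to B6 CD8+ cells. Closed gaps gave 6.67 for Klre1, 1.06 for S100a11, -1.20 for Trbv26, 2.50 for Gna15 and 2.63 for Serp2, where the value for Klre1 rests on 0 or 1 counts in each B6 CD4+ library and depends on the prior count. For narrowed gaps the difference was 7.31 for Cd8a, -6.93 for Cd4 and 2.70 for Cd8b1, which the sort and the altered locus fix, and 3.93 for Itgae, 3.05 for Myo1f and 2.95 for Ly6c2. Opened gaps gave 3.45 for Gzmb, 3.19 for S100a6, 1.35 for Fam129a, 3.95 for Osbpl3, 3.67 for Nebl and 1.29 for Gsto1. Widened gaps gave 2.87 for Gpr83, 2.68 for Chn2, 3.39 for Prg4, 1.73 for Apol9b and 1.02 for Wfikkn2. All of these genes were also called with the same sign in each of the 12 fits that left out 1 library.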

How the results depend on the processing

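Leaving out the first CD8.1 library, or weighting the libraries, raised these counts. Without that library the fit called 1378 genes, 2975 helper-lineage and 1932 cytotoxic-lineage strain differences, with 102 reversed, 263 closed, 151 narrowed, 725 opened and 103 widened gaps, 794 on the helper side, 313 on the cytotoxic side and 170 on both. limma voom with sample quality weights gave 1605 calls, 881 positive and 724 negative, of which 240 were among the 245, with 3062 helper-lineage and 3863 cytotoxic-lineage strain differences, 96 reversed, 326 closed, 198 narrowed, 833 opened and 120 widened gaps, 734 on the helper side, 545 on the cytotoxic side and 241 on both. The cause was not tested.

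Over the 12 fits that left out 1 library the lowest and highest counts were 167 and 1378 for the lineage gap difference, 2424 and 3722 for the B6 gap, 2584 and 4967 for the CD8Dual gap, 769 and 2975 for the helper-lineage and 437 and 1932 for the cytotoxic-lineage strain difference. By class they were 15 and 102 reversed, 39 and 263 closed, 56 and 151 narrowed, 34 and 725 opened, and 11 and 103 widened. By side they were 70 and 794 for the helper side, 41 and 313 for the cytotoxic side, and 33 and 170 for both. Besides the first CD8.1 library, helper-lineage calls moved by over 1.5 times without B6 CD4+ replicate 1 (769) or 2 (885) or CD8.1 replicate 2 (819), and cytotoxic-lineage calls without B6 CD8+ replicate 1 (478) or 2 (437) or CD8.2 replicate 1 (536), 2 (446) or 3 (442). Reversed genes numbered 17 without B6 CD4+ replicate 2, 16 without CD8.2 replicate 1 and 15 without CD8.2 replicate 3. Closed genes numbered 40 without B6 CD4+ replicate 2 and 39 without B6 CD8+ replicate 2. Opened genes numbered 37 without B6 CD8+ replicate 3, 36 without CD8.1 replicate 2 and 34 without CD8.2 replicate 3. Widened genes numbered 11 without B6 CD8+ replicate 2 and 13 without CD8.2 replicate 3. The helper side fell to 70 without B6 CD4+ replicate 2 and 76 without CD8.1 replicate 2, the cytotoxic side to 41 without CD8.2 replicate 3, and both sides to 33 without CD8.2 replicate 1 and 38 without CD8.2 replicate 3 or B6 CD8+ replicate 2.

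DESeq2 called 410 genes, all 245 among them, with 108 closed, 124 narrowed, 113 opened and 33 widened gaps, 193 on the helper side and 125 on the cytotoxic side. Without a filter on low counts 620 genes were called, with 1593 cytotoxic-lineage strain differences, 54 reversed, 139 closed, 140 narrowed, 222 opened and 56 widened gaps, 290 on the helper side, 152 on the cytotoxic side and 144 on both. With an adjusted p under 0.01 there were 131 calls, 1977 B6 and 2199 CD8Dual gaps, 554 helper-lineage and 339 cytotoxic-lineage strain differences, 11 reversed, 39 closed, 47 narrowed, 26 opened and 8 widened gaps, 62 on the helper side, 42 on the cytotoxic side and 22 on both, by the stricter threshold itself. An absolute log2 difference of at least 1 left 178 calls, 1104 B6 and 1200 CD8Dual gaps, 408 helper-lineage and 222 cytotoxic-lineage strain differences, 41 closed gaps and 78 on the helper side. The replicate block within each strain gave 896 helper-lineage strain differences, 89 opened and 32 widened gaps and 25 on both sides, and the block shared by the strains gave 211 calls. Among the pairs, the block changed no other count by over 1.5 times. Size factors (248 calls), robust estimation (243), a mean of at least 1 CPM (231) and leaving out antigen receptor segments (227) moved the count by less.

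None of the 94 named genes changed its direction under any of these alternatives. Robust estimation lost the call of Lars2, and the shared block those of Ly6a, Bhlhe40, Capg, Trbv3, Il12rb1, Trbv29, Itgb3, Ifi44 and Trbv19. Leaving out a library other than the first CD8.1 one lost the calls of 8 to 16 named genes, most often Ifi44 and Trbv3, then Trbv19, then Cxcr5, Entpd1, Plagl1, Itgb3, Trbv20 and Trbv29. Of the genes lost in 1 to 3 of these fits, Nt5e fell to 0.88, Nrp1 to 1.17 and Lars2 moved to -3.86 without B6 CD8+ replicate 2, Lars2 to -4.08 and Cd40lg to -0.80 without B6 CD8+ replicate 3, Xcl1 to 1.84 without B6 CD4+ replicate 1 and 1.87 without CD8.1 replicate 3, Klrc1 to 2.98 without CD8.1 replicate 2, Pmepa1 to 0.57 without CD8.2 replicate 3, and Cd40lg to -0.89 without CD8.2 replicate 2 or 3. Genes with 0 or 1 counts in the libraries of a group, such as Klre1 and PVRIG in B6 CD4+ T cells, are limited by depth.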
